A study of Mus musculus with 8 samples.

Results

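The comparison described here is mCre against WT in TN cells, CD8+ T cells sorted from mouse spleen, by small RNA sequencing. It takes the 4 TN libraries of a series of 8: the libraries labelled WT TN replicates 1 and 2 and those labelled mCre TN replicates 1 and 2, chosen by their titles. The other 4 libraries, WT and mCre cells of the subset MP, enter the fit to share its estimate of spread and serve as the nearest comparison. The labels do not spell out mCre, TN or MP. In this field TN usually means true naive, and the series title ties Cre, a recombinase that deletes marked genes, to miR-29. The sources used here name neither the deleted sequence, nor the promoter that drives Cre, nor any other allele of either genotype. Per the labels' protocols, CD8+ cells were enriched on beads and sorted by CD8, CD4, CD44 and CD122. The same protocol names both adult and neonatal spleens, and no age is given for a single sample. Nothing in the labels ties the libraries of a group to separate mice, so each test rests on a spread between libraries that may be technical.

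A miRNA is a short RNA that is cut from a hairpin and guides repression of messenger RNAs, which it finds mainly through its seed, the bases near its 5′ end. Members of a family share a seed and so share most predicted targets. miR-29 is known in T cells for repressing the transcription factors T-bet and Eomes and the cytokine interferon gamma, all of which mark effector and memory-like CD8+ cells. Naive T cells are held in a resting state in which let-7 and miR-150 are plentiful, while miR-155, miR-21 and the miR-17-92 cluster are known to increase on activation.

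The sequences below carry the results that follow. Each is given 5′ to 3′ from RefSeq (GRCm38.p6), with the seed, bases 2 to 8, in capitals. The first set is the miR-29 family, the miRNA of the series title.
miR-29a-3p: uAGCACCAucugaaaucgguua
miR-29b-3p: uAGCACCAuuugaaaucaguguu
miR-29c-3p: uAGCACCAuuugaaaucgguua
The next set, the miR-15/16 family, went the opposite way in the replicate 1 and replicate 2 pairs, as miR-29 did.
miR-15a-5p: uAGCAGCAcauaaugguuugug
miR-15b-5p: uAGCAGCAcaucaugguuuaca
miR-16-5p: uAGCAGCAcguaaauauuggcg
The next set holds miR-128-3p and miR-342-5p, both far lower in mCre in the replicate 2 pair, and miR-342-3p, the other arm of the Mir342 hairpin, which was higher there.
miR-128-3p: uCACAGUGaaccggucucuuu
miR-342-5p: aGGGGUGCuaucugugauugag
miR-342-3p: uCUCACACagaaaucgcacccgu
The last set went the same way in both pairs.
miR-92a-3p: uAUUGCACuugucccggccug
miR-25-3p: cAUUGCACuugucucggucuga
miR-183-5p: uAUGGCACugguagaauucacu
miR-96-5p: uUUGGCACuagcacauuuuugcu
miR-182-5p: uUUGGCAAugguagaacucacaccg
miR-181a-1-3p: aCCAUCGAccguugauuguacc
miR-21a-3p: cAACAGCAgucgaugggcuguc

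In the mouse genome (GRCm38) miR-29a-3p lies at chr6:31062673-31062694 on the minus strand, inside no other annotated gene. miR-29b-3p comes from chr6:31063025-31063047, also inside no other gene, and from chr1:195037091-195037113, and miR-29c-3p from chr1:195037600-195037621. Both chromosome 1 sites lie in exons of the noncoding gene A330023F24Rik, opposite exons of Cd46. miR-15a-5p and one copy of miR-16-5p sit in an intron of the noncoding gene Dleu2 on chromosome 14. miR-15b-5p and the other copy of miR-16-5p sit in an intron of Smc4 on chromosome 3. Both arms of Mir342 lie in an intron of Evl, at chr12:108658638-108658659 for the 5p arm and chr12:108658680-108658702 for the 3p arm. miR-128-3p has a copy in an intron of R3hdm1 (chr1:128202404-128202424) and one in an intron of Arpp21 (chr9:112118644-112118664). miR-183-5p, miR-96-5p and miR-182-5p lie together on chromosome 6 inside no other annotated gene, at chr6:30169711-30169732, chr6:30169506-30169528 and chr6:30165962-30165986.

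The TN libraries held 1936600 to 5230975 miRNA counts, a 2.70-fold range, and 382 mature miRNAs had enough counts to be tested. Levels are CPM, counts scaled to a common library total, after TMM scaling, which aligns libraries by the bulk of their miRNAs. The libraries of a group differed by more than counting noise, with a chi-square per degree of freedom of 1638 for WT and 997.8 for mCre. Among 132 miRNAs with a mean of at least 100 CPM, WT TN replicate 2 was the highest or lowest library by more than 2-fold for 42, 13 of them high and 29 low. The library labelled mCre TN replicate 2 stood alone in this way for 29 (14 high and 15 low), WT TN replicate 1 for 12 and mCre TN replicate 1 for 0. Over these 132, the Pearson correlation of log2 CPM was 0.95 between WT and mCre of replicate 1, across genotypes. It was 0.82 between the WT TN libraries, 0.84 between the mCre TN libraries and 0.73 between WT and mCre of replicate 2. The library labelled WT TN replicate 2 correlated at 0.95 with each of the mCre MP libraries, and at 0.86 and 0.84 with the WT MP libraries. The library labelled mCre TN replicate 2 was at 0.70 and 0.78 with mCre MP and at 0.805 and 0.87 with WT MP. For mCre TN replicate 1 these values were 0.88 and 0.92, and 0.93 and 0.90. These correlations run across miRNAs, which are not independent replicates. The replicate 1 pair and the replicate 2 pair are described apart throughout. Each side of a pair is 1 library, so there is no replicate check within it.

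The miR-29 family, named in the series title, ran in opposite directions in the pairs. The pairs are kept apart because of this, so its values are given as a description. It took 0.355% of the miRNA counts in WT replicate 1 (95% Wilson interval 0.348% to 0.362%) and 0.170% in mCre replicate 1 (0.167% to 0.174%). It took 0.0774% in the library labelled WT replicate 2 (0.0736% to 0.0814%) and 1.59% in the library labelled mCre replicate 2 (1.58% to 1.61%). The intervals cover counting error only, since no molecular identifiers were used. The highest and the lowest TN library were thus both of replicate 2, and the groups overlapped. Every genotype direction in TN that draws on these libraries takes them as labelled. Whether the labels of the replicate 2 TN libraries were exchanged was not tested, and with such an exchange every replicate 2 direction given here would turn.

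miR-29a-3p, the abundant member, was 2752 CPM in WT replicate 1, 802 in WT replicate 2, 1409 in mCre replicate 1 and 15390 in mCre replicate 2. The replicate 1 ratio of mCre over WT was 0.512 (exact 95% Poisson interval 0.498 to 0.527), and the replicate 2 ratio was 19.2 (18.2 to 20.2). miR-29b-3p was 104 CPM in WT replicate 1, 38.3 in WT replicate 2, 53.7 in mCre replicate 1 and 664 in mCre replicate 2. Its ratios, 0.516 (0.444 to 0.600) and 17.3 (13.6 to 22.4), were close to those of miR-29a-3p although one of its sources is the chromosome 1 cluster. miR-29c-3p had 45 counts in WT replicate 1, 0 in WT replicate 2, 36 in mCre replicate 1 and 130 in mCre replicate 2. Its ratio was 0.496 (0.311 to 0.787) in replicate 1. With a floor of 3 counts in the library at 0, miR-29c-3p was 26.7-fold higher in mCre in replicate 2 (lower Poisson limit 21.4). All 3 seed-sharing strands therefore stood at about the same ratio within the replicate 1 pair, and all 3 were over 10-fold higher in mCre within the replicate 2 pair.

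The partner strands of the miR-29 hairpins were scarce. miR-29a-5p had 7, 0, 12 and 19 counts in WT replicates 1 and 2 and mCre replicates 1 and 2, in that order. miR-29b-1-5p had 16, 7, 25 and 12, and miR-29c-5p 7, 0, 6 and 0. With the floor of 3 counts miR-29a-5p was 3.90-fold higher in mCre in replicate 2 (lower Poisson limit 2.87). It was at a ratio of 1.06 (0.386 to 3.19) in replicate 1. For miR-29b-1-5p the ratios were 0.970 (0.498 to 1.94) and 1.06 (0.383 to 3.16), so a difference was not detectable at this depth. In the fit over all libraries the log2 fold change of mCre over WT was 2.24 ± 1.16 for miR-29a-3p, 2.33 ± 1.15 for miR-29b-3p and 2.00 ± 1.44 for miR-29c-3p (SE, edgeR adjusted p = 0.957 for each). With neither TN library of replicate 2 the 3 values were -0.98, -0.96 and -1.02, in the opposite direction. They were also negative without mCre replicate 2 alone, at -0.38, -0.47 and -0.11.

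**Figure D1:**
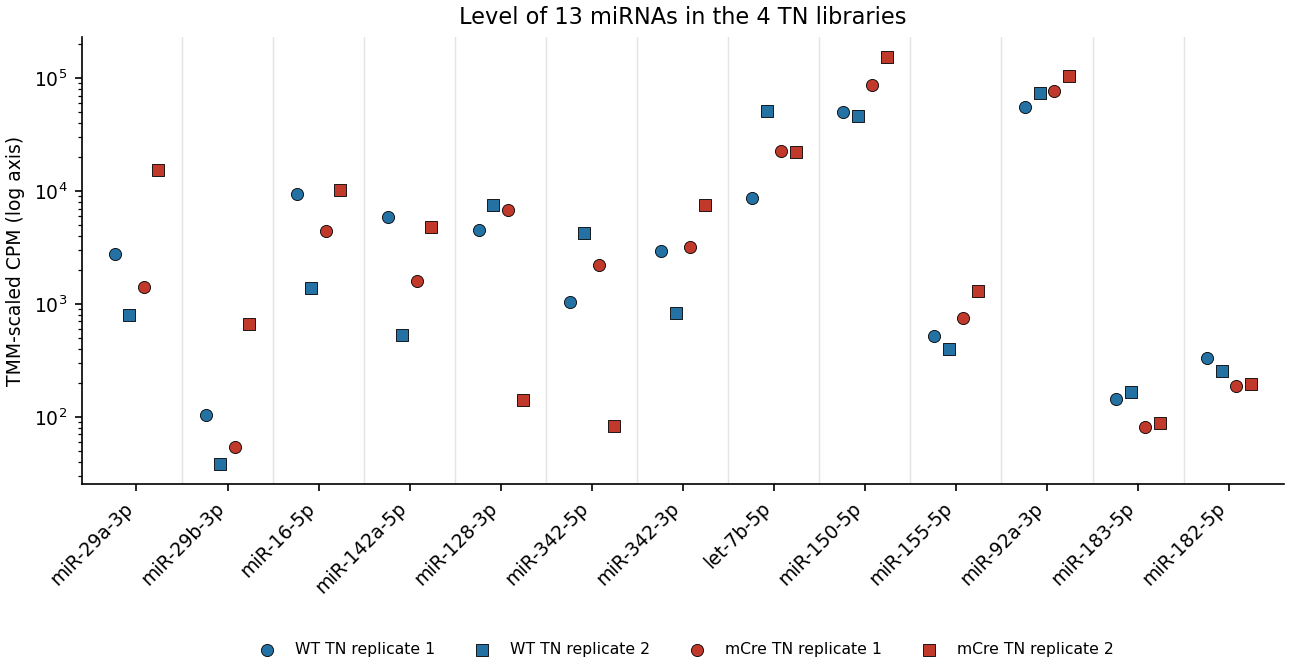
TMM-scaled CPM of 13 miRNAs (log axis) in the 4 TN libraries; circles are replicate 1, squares replicate 2, blue WT and red mCre. For miR-29a-3p the lowest and the highest point are both squares, at 802 and 15390 CPM, whereas for miR-150-5p and miR-92a-3p both red points lie above both blue points and for miR-182-5p and miR-183-5p below them.

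Over both pairs, no miRNA passed the test. The quasi-likelihood test of edgeR, adjusted by Benjamini and Hochberg, called 0 of 382 (0%), and its smallest adjusted p was 0.957. Before adjustment 12 miRNAs (3.14%) were under 0.05. DESeq2 also called 0, and 24 were under 0.05 before adjustment. Without the filter on low counts edgeR called 1 of 877, miR-181c-5p. With neither TN library of replicate 2 it called 0, with 21 unadjusted. With neither TN library of replicate 1 it called 85, of which 48 were higher and 37 lower in mCre. In that fit each TN group is 1 library that is assumed to vary as the MP groups do.

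The 5 miRNAs with the smallest p had both mCre libraries on one side of both WT libraries. In all, 86 of 382 (22.5%) lacked overlap, 60 with mCre above (15.7%) and 26 with mCre below (6.81%). miR-21a-3p, the scarcer strand of its hairpin, had 1 count in WT replicate 1, 0 in WT replicate 2, 25 in mCre replicate 1 and 36 in mCre replicate 2. The replicate 1 ratio was 15.5 (exact 95% Poisson interval 2.54 to 637). In replicate 2 it was 7.38-fold higher in mCre with a floor of 3 counts in WT (lower Poisson limit 5.70). The major strand miR-21a-5p, which is known to increase on T cell activation, was 18150, 9528, 21120 and 17940 CPM in the same order, so the WT and mCre ranges overlapped.

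miR-150-5p, a miRNA of resting mature lymphocytes that represses Myb, was 49910 CPM in WT replicate 1 and 46040 in WT replicate 2. It was 87740 in mCre replicate 1 and 153500 in mCre replicate 2, above both WT libraries, with a log2 fold change of 1.33 ± 0.42 (SE, edgeR unadjusted p = 0.0140, adjusted p = 0.957). The other strand of that hairpin, miR-150-3p, looked at for its partner's values, was at a ratio of 1.33 (1.28 to 1.38) in replicate 1 and 0.442 (0.424 to 0.460) in replicate 2, so it did not follow in replicate 2. miR-181a-1-3p is the partner strand of miR-181a, a miRNA that sets T cell receptor sensitivity in developing T cells. It was 71.5 and 63.7 CPM in WT and 149 and 214 in mCre (log2 fold change 1.42 ± 0.51). The major strand miR-181a-5p was 4680 and 3516 CPM in WT and 4577 and 13770 in mCre, where replicate 1 gave overlap. miR-664-3p was 40.4 and 15.2 CPM in WT and 73.1 and 122 in mCre. It lies in an exon of the small nucleolar RNA gene Snora36b, within an intron of Rab3gap2. miR-8120, the only one of the 5 lower in mCre, had 11 and 16 counts in WT and 6 and 2 in mCre.

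Taken one pair at a time, the ratios were wide and unequal. In the replicate 1 pair 95 of 382 miRNAs (24.9%) differed by more than 2-fold, 49 higher and 46 lower in mCre. In the replicate 2 pair 235 (61.5%) did, 141 higher and 94 lower. The median size of the log2 difference was 0.53 in the replicate 1 pair and 1.33 in the replicate 2 pair. Between libraries labelled with 1 genotype the same median was 1.24 for WT and 0.76 for mCre, both above the replicate 1 pair and below the replicate 2 pair. With RLE factors the replicate 1 split was 40 higher and 58 lower, and with total counts 41 and 58. The median log2 ratio of all tested miRNAs was 0.08 in the replicate 1 pair (-0.02 with RLE factors and -0.01 with total counts). In the replicate 2 pair it was 0.28 (0.15 with RLE factors and 0.38 with total counts), so ratios near these medians have no firm direction.

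Signs did not match in the pairs for 247 of 382 miRNAs (64.7%), counting miR-29c-5p and miR-132-5p, whose log2 ratio was 0 in replicate 2. The Pearson correlation between the pairs' log2 ratios was -0.42 (Spearman -0.46) across the 382 miRNAs, which share the 4 libraries. Past 2-fold in both pairs, 62 (16.2%) went opposite ways and 9 (2.36%) the same way. Of the 62, 37 were lower in mCre in replicate 1 and higher in replicate 2, and 25 the reverse. Among the 132 miRNAs of at least 100 CPM, 22 passed 2-fold in replicate 1 and 78 in replicate 2. Of those past 2-fold in both pairs, 17 went opposite ways and 1, miR-181a-1-3p, the same way. The reversal seen for miR-29 was therefore found in many other miRNAs, at high levels as well as low.

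**Figure D2:**
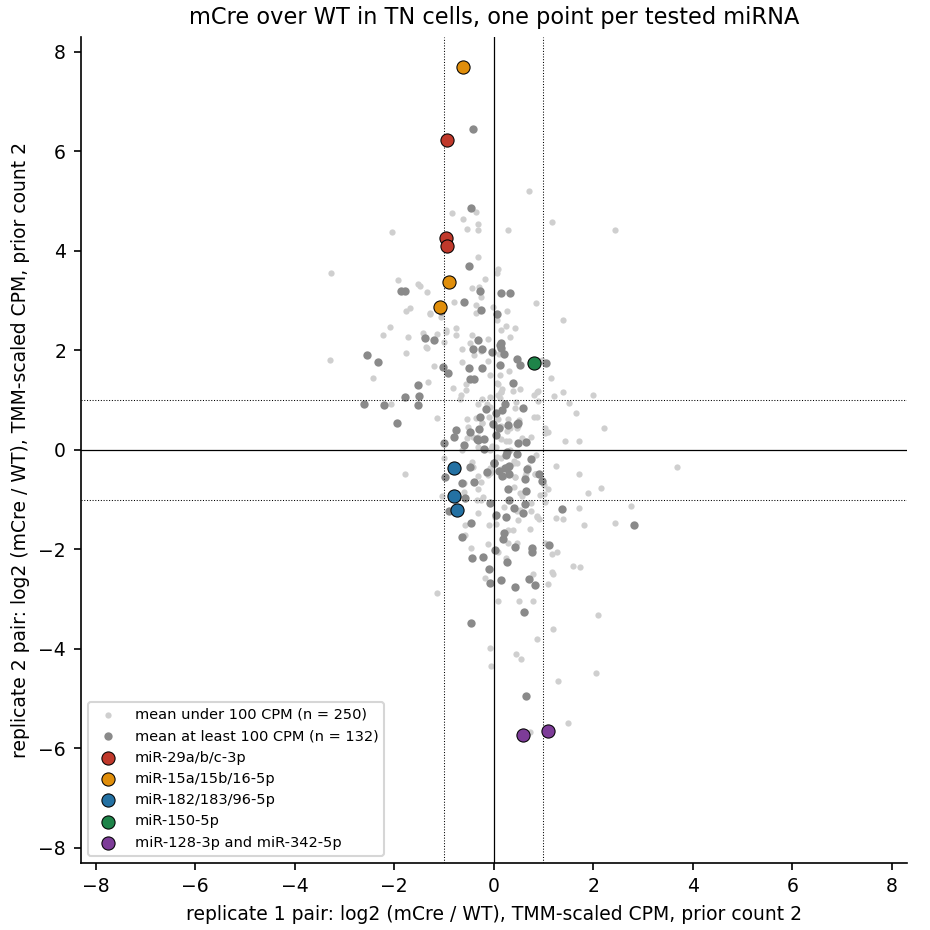
Log2 ratio of mCre over WT in the replicate 1 pair (x axis) against the replicate 2 pair (y axis), 1 point for each of 382 miRNAs, dark grey at a mean of at least 100 CPM; dotted lines mark 2-fold. miR-29 and miR-15/16 lie in the upper left, lower in mCre in replicate 1 and higher in replicate 2, with the 3 miRNAs of the miR-183 cluster in the lower left and miR-150-5p in the upper right.

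Past 2-fold in both pairs, 13 miRNAs of at least 100 CPM were lower in mCre in replicate 1 and higher in replicate 2. miR-16-5p, which restrains cyclins and Bcl2, was 9502 CPM in WT replicate 1, 1395 in WT replicate 2, 4472 in mCre replicate 1 and 10250 in mCre replicate 2. WT replicate 1 and mCre replicate 2 were thus the high libraries and WT replicate 2 the low one. miR-142a-5p, a miRNA of blood cells that lies in an intron of Mir142hg at chr11:87756867-87756887, was 5841, 526, 1602 and 4836 CPM in that order. miR-30e-5p, in an intron of Nfyc, was 3586, 268, 616 and 1006 CPM. In each of these 3 the WT libraries lay further apart than WT and mCre of replicate 1. miR-106b-5p (log2 ratios -1.78 and 3.20), miR-103-3p (-1.20 and 2.21) and miR-203-3p (-1.52 and 1.30) did the same. So did miR-19b-3p, miR-17-5p and miR-20a-5p of the miR-17-92 cluster, miR-101b-3p, and the Sfmbt2 cluster members miR-669a-3p, miR-466d-3p and miR-467a-3p.

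The reverse orientation past 2-fold in both pairs, higher in mCre in replicate 1 and lower in replicate 2, held for 4 miRNAs of at least 100 CPM. let-7b-5p, of a family known to restrain effector differentiation of CD8+ cells, was 8764 CPM in WT replicate 1, 50840 in WT replicate 2, 22610 in mCre replicate 1 and 22300 in mCre replicate 2. The mCre libraries were nearly equal and lay between the WT libraries. miR-423-5p had the same shape, at 1215, 9795, 2627 and 2589 CPM. miR-669c-5p was 541, 6804, 3804 and 2383 CPM. miR-342-5p was 1042, 4226, 2214 and 83.9 CPM, so that WT replicate 2 was the highest library and mCre replicate 2 the lowest.

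Some of the widest ratios stood in the replicate 2 pair alone. miR-128-3p, singled out after its values were seen, was 4495, 7505, 6760 and 141 CPM in WT replicates 1 and 2 and mCre replicates 1 and 2. The other 3 libraries lay within 2-fold of each other and the library labelled mCre replicate 2 was at a ratio of 0.0188 (exact 95% Poisson interval 0.0170 to 0.0208) to WT replicate 2. miR-15a-5p, in an intron of Dleu2, had 200, 2, 208 and 1040 counts. The replicate 2 ratio was 320 (88.4 to 2646), against 0.645 (0.529 to 0.788) in replicate 1. miR-181c-5p, the miRNA called without the filter and also chosen after its values were seen, was 58.9, 11.8, 43.7 and 1078 CPM, with mCre replicate 2 far above the other 3 libraries. miR-26b-5p, a miRNA of resting lymphocytes, was 14050, 5721, 11540 and 51870 CPM, and again mCre replicate 2 stood high and WT replicate 2 low. The family partner miR-26a-5p was 28450, 15630, 25550 and 27420 CPM, with WT replicate 2 low and the other 3 libraries close together.

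Several miRNAs kept 1 direction in both pairs as labelled, mostly by smaller margins. That they run the same way in both pairs depends on the replicate 2 labels. miR-92a-3p, made by the miR-17-92 cluster on chromosome 14 and by a copy on the X chromosome, was 55300 CPM in WT replicate 1, 73860 in WT replicate 2, 76990 in mCre replicate 1 and 105300 in mCre replicate 2. The ratios, 1.39 (1.38 to 1.40) and 1.43 (1.42 to 1.44), were nearly the same. miR-25-3p, which shares its seed and lies in Mcm7 on chromosome 5, was 12180 and 12360 CPM in WT and 17180 and 18080 in mCre, with ratios of 1.41 (1.40 to 1.43) and 1.46 (1.44 to 1.49). In both miRNAs the mCre libraries lay above the WT libraries. The log2 fold changes, 0.50 ± 0.35 and 0.52 ± 0.40 (SE), did not pass (edgeR adjusted p = 0.957 for both).

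The miR-183 cluster, which cytokine signals induce in T cells and whose member miR-182 is known to repress Foxo1, was lower in mCre in both pairs for 3 of 3 members. miR-183-5p was 144 and 167 CPM in WT and 82.2 and 87.7 in mCre, with ratios of 0.571 (0.504 to 0.646) and 0.526 (0.443 to 0.624). miR-182-5p was 333 and 255 CPM in WT and 190 and 198 in mCre, with ratios of 0.571 (0.526 to 0.619) and 0.776 (0.685 to 0.880). miR-96-5p was scarce, at 5.36 and 5.63 CPM in WT and 2.99 and 2.08 in mCre. None of the 3 overlapped between the groups, against 6.81% of all tested with mCre below, and none passed: the log2 fold changes were -0.87 ± 0.50, -0.60 ± 0.49 and -1.09 ± 0.74 (SE, edgeR adjusted p = 0.957 for each).

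miR-155-5p, which effector CD8+ responses need, was 524 and 397 CPM in WT and 756 and 1296 in mCre, with a log2 fold change of 1.16 ± 0.53, not past the threshold (edgeR adjusted p = 0.957). Apart from miR-181a-1-3p, the miRNAs past 2-fold the same way in both pairs were all scarce. miR-100-5p, miR-3074-5p, miR-34a-5p, miR-375-3p, miR-505-5p and miR-92b-5p, singled out after their values were seen, were all under 20 CPM in every TN library and higher in mCre. Of all 382 tested, 15.7% had mCre above WT without overlap and 6.81% below. Of the 132 at 100 CPM or more, 20 were above and 10 below. Among those below were miR-139-5p, known to be lost on activation and chosen after its values were seen (2058 and 3768 CPM in WT, 1507 and 337 in mCre), and miR-200a-3p of the epithelial miR-200 family (383 and 446 CPM in WT, 278 and 162 in mCre).

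By seed, 84 groups of miRNAs had a mean summed level of at least 100 CPM, and 56 of them had opposite signs in the pairs, 12 were higher in mCre in both and 16 lower in both. The miR-29 seed AGCACCA gave log2 ratios of -0.96 in replicate 1 and 4.26 in replicate 2. The miR-15/16 seed AGCAGCA gave -1.05 and 2.99, and GCAGCAU, the seed of miR-103 and miR-107, gave -1.19 and 2.28. AAAGUGC, shared by miR-17, miR-20a, miR-20b, miR-93, miR-106a and miR-106b, gave -1.18 and 2.25, and all 6 of its members were lower in replicate 1 and higher in replicate 2. ACAUUCA, the seed of the 4 major miR-181 strands, gave -0.03 and 2.08. The let-7 seed GAGGUAG, the most abundant group, gave 0.12 and -0.75. AUUGCAC, the seed of miR-92a and miR-25, gave 0.48 and 0.52, and UCACAGU, the seed of miR-27a and miR-27b, gave -0.89 and -0.69.

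The families and clusters of T cell interest were read as lists, each against the 204 of 382 miRNAs higher in mCre in replicate 1 and 214 in replicate 2. Of 6 tested miR-29 forms, 1 was higher and 5 lower in replicate 1, while 5 were higher and 0 lower in replicate 2. The median log2 ratio was -0.79 and 3.83, or 3.03 in replicate 2 with the 2 forms at 0 in WT alone set to the floor of 3 counts. The 4 tested miR-15/16 members were all lower in replicate 1 and all higher in replicate 2 (medians -0.99 and 3.13). Of 9 tested miR-17-92 members, 7 were lower in replicate 1 and 8 higher in replicate 2 (medians -0.97 and 1.77). Within that list miR-92a-3p was higher in both pairs, but it also comes from a copy on the X chromosome, so its level cannot be assigned to this cluster alone. Of 38 tested miRNAs with names of the Sfmbt2 cluster, a rodent repeat of near-identical copies, 25 were lower in replicate 1 and 25 higher in replicate 2 (medians -0.43 and 2.02). These copies can share reads, so single values are uncertain.

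The let-7 list leaned the other way, with 7 of 9 members higher in mCre in replicate 1 and 7 of 9 lower in replicate 2 (medians 0.19 and -0.78). Summed, let-7 took 50.6% of counts in WT replicate 1, 68.7% in WT replicate 2, 51.2% in mCre replicate 1 and 43.9% in mCre replicate 2. WT replicate 2 thus stood above the other 3 libraries. The miR-181 list had 5 of 9 members higher in replicate 1 and 7 in replicate 2 (medians 0.15 and 1.97), and its share was 0.797%, 0.427%, 0.743% and 1.88% in the same order. Of the miR-106b-25 and miR-106a-363 clusters, 7 of 11 members were higher in replicate 1 and 8 in replicate 2 (medians 0.14 and 2.04). The T cell activation list had 6 of 7 members higher in each pair (medians 0.22 and 0.79), with 2 of 7 of opposite sign in the pairs. The resting lymphocyte list had 2 of 7 higher in replicate 1 and 6 of 7 in replicate 2 (medians -0.28 and 1.06). The miR-23/27/24 clusters had 3 of 10 higher in each pair (medians -0.24 and -0.61), with 4 of 10 of opposite sign in the pairs. The miR-30 family was divided, with 5 of 11 higher in each pair but 8 of 11 of opposite sign in the pairs. The miR-99/100 and miR-125 families had 4 of 5 higher in replicate 1 and 2 of 5 in replicate 2. With RLE factors or total counts, no median of these lists changed sign except that of miR-30 in replicate 2, which was -0.01 and became 0.10 with total counts. No member of any list passed over all miRNAs tested (edgeR adjusted p under 0.05 for 0 of 382).

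**Figure D3:**
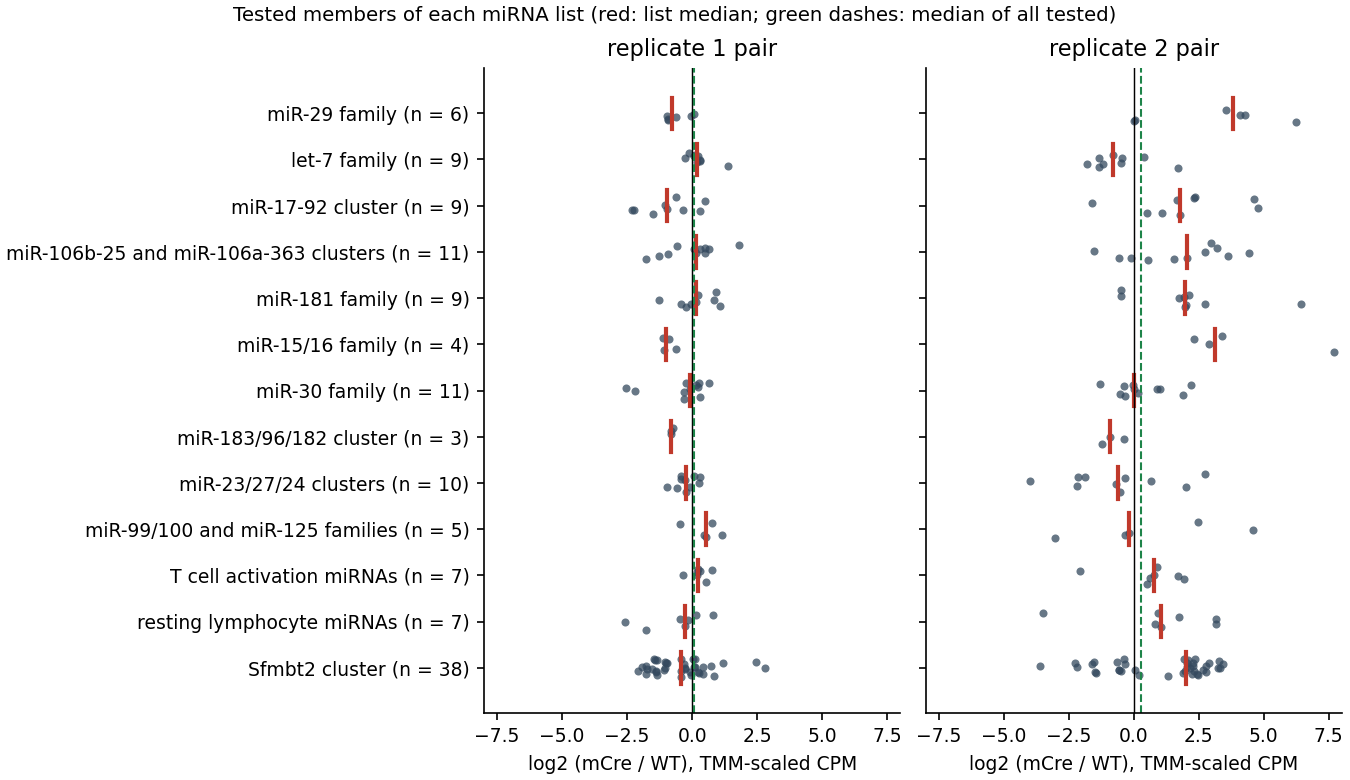
Log2 ratio of mCre over WT for the tested members of 13 miRNA lists, replicate 1 pair at left and replicate 2 pair at right; points are miRNAs, the red bar is the list median and the green dashes are the median of all 382 (0.08 and 0.28). The miR-29, miR-17-92, miR-15/16 and Sfmbt2 medians are below 0 at left and above 1.5 at right. That of let-7 is above 0 at left and below 0 at right, and the 3 points of the miR-183 cluster are below 0 in both.

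The arms of a hairpin are cut from 1 precursor, so a change in how much precursor is made is shared by both. Of 84 hairpins with both arms tested, the arms had the same sign in 42 in replicate 1 and in 45 in replicate 2. Some mature strands, among them miR-24-3p, miR-16-5p and miR-181a-5p, come from more than 1 hairpin and were entered with each. The arms compared there are not from 1 precursor alone. The arms lay a median of 0.76 apart on the log2 scale in replicate 1 and 1.82 apart in replicate 2, and more than 2 apart in 7 and 39 hairpins. Among 17 hairpins with both arms at 100 CPM or more, which include Mir24-2, Mir181a-1 and Mir181a-2 with such shared strands, the signs matched in 7 and 8. Mir342 had the widest gap of these in replicate 2. miR-342-5p was at a ratio of 0.0199 (0.0174 to 0.0226) while miR-342-3p, at 2916, 837, 3212 and 7486 CPM, was at a ratio of 8.94 (8.48 to 9.43). In the replicate 1 pair both arms were higher in mCre, at 2.12 (2.05 to 2.20) and 1.10 (1.08 to 1.13). Mir361, in an intron of Chm on the X chromosome and singled out after its values were seen, had log2 ratios of 3.70 for the 5p arm and -2.40 for the 3p arm in replicate 2. In replicate 1 its arms were at -0.50 and -0.09. In Mir30e the 5p arm was at -2.54 and 1.91 in the pairs while the 3p arm was at 0.27 and -0.04. In Mir106b the 5p arm was at -1.78 and 3.20 and the 3p arm at 0.48 and -0.09. In these last 2 hairpins the 5p arm passed 2-fold in opposite ways in the pairs. The 3p arm also differed in sign between the pairs, but stayed within 2-fold in each.

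**Figure D4:**
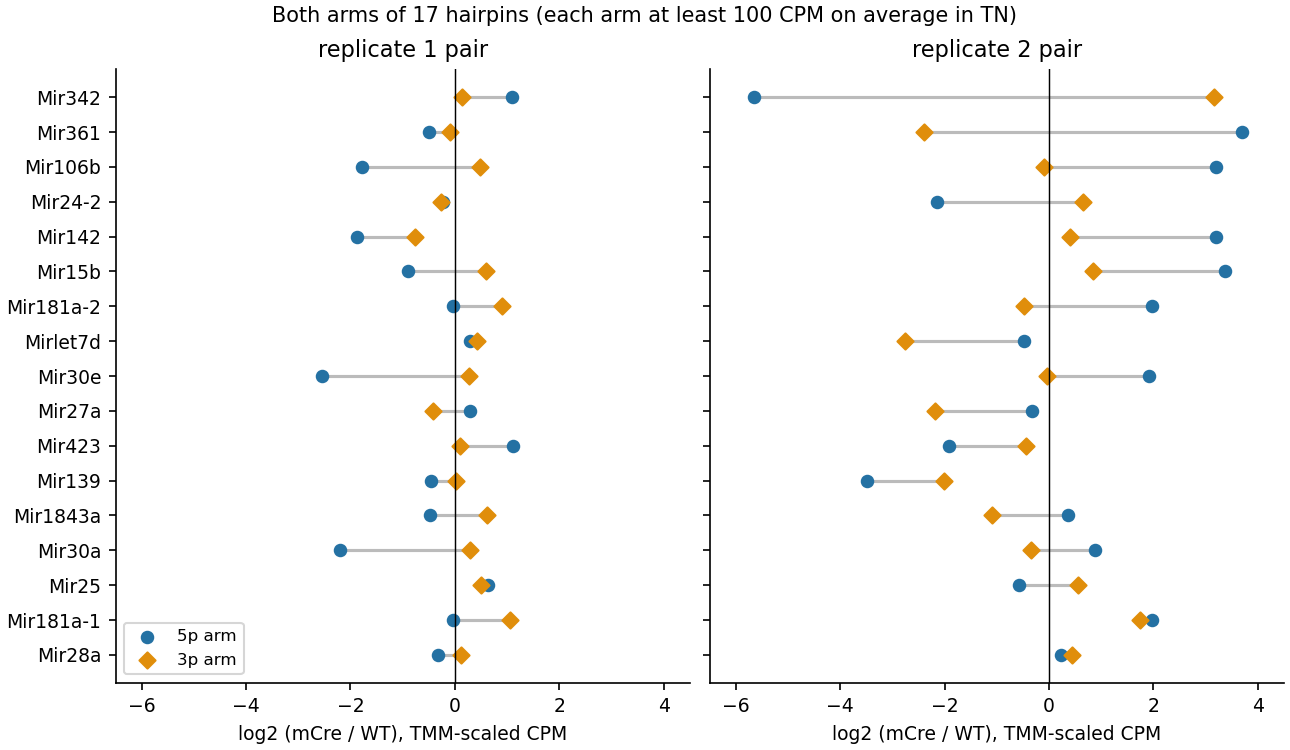
Log2 ratio of mCre over WT for the 5p arm (blue circles) and 3p arm (orange diamonds) of 17 hairpins with both arms at a mean of at least 100 CPM, replicate 1 pair at left and replicate 2 pair at right; a grey line joins the arms. Mir342 has its arms at -5.64 and 3.16 in the replicate 2 pair and at 1.09 and 0.14 in the replicate 1 pair.

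Base composition moved with the ratios, in opposite directions in the pairs. Over the 308 tested miRNAs with a RefSeq sequence (80.6% of 382), the Pearson correlation of the log2 ratio with the percent of G and C bases was 0.31 in replicate 1 and -0.19 in replicate 2. The median ratio of the 52 miRNAs under 40% G and C was -0.07 in replicate 1 and 0.92 in replicate 2. For the 122 above 50% it was 0.43 and -0.29. The ratio of WT replicate 2 over WT replicate 1 holds no genotype difference if the labels are right. It had a correlation of 0.32 and medians of -1.12 under 40% and 0.58 above 50%. That of mCre replicate 2 over replicate 1 had a correlation of -0.08. Length was at 0.06 and 0.05 in the pairs. miR-29a-3p has 40.9% G and C, miR-29c-3p 36.4% and miR-29b-3p 34.8%. With a straight-line trend in base composition removed, miR-29a-3p was at -0.67 in replicate 1 and 3.86 in replicate 2. For miR-29b-3p the values were -0.47 and 3.44. The part of base composition in these ratios was not tested.

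**Figure D5:**
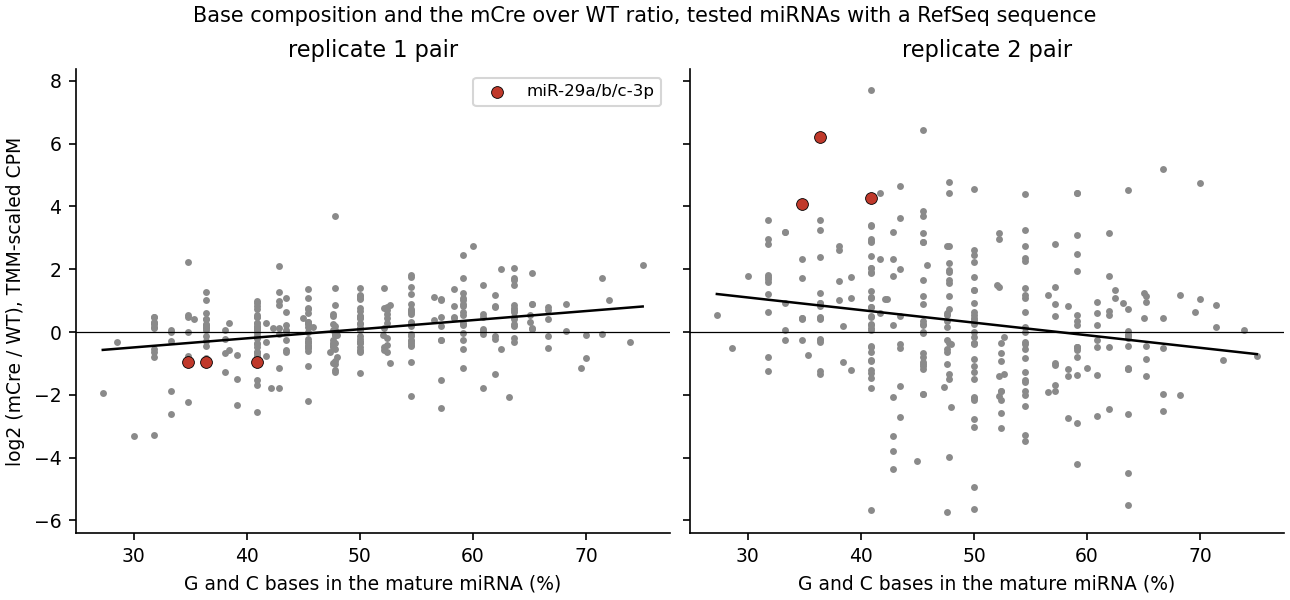
Log2 ratio of mCre over WT against the percent of G and C bases in the mature miRNA for 308 tested miRNAs, replicate 1 pair at left and replicate 2 pair at right, with a fitted straight line; miR-29 strands are in red. The line rises in the replicate 1 pair (Pearson 0.31) and falls in the replicate 2 pair (-0.19), and the red points lie below it at left and above it at right.

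The lymphocyte identity of the libraries was read from markers of several cell types. The 5 T lymphocyte markers (miR-150-5p, miR-142a-3p, miR-142a-5p, miR-342-3p and miR-181a-5p) summed to 65980 CPM in WT replicate 1, 51860 in WT replicate 2, 98680 in mCre replicate 1 and 180900 in mCre replicate 2. miR-150-5p made up most of each sum. By member, 2 of the 5 were higher in mCre in replicate 1 and 5 of 5 in replicate 2, and 2, miR-150-5p and miR-342-3p, lay above WT without overlap. Myeloid markers, miR-223-3p and miR-223-5p, summed to 5.62 to 7.89 CPM in WT and 6.31 to 10.4 in mCre. The 5 erythroid markers summed to 78.4 to 201 CPM in WT and 70.9 to 150 in mCre. The 6 endothelial and stromal markers summed to 24.2 to 47.1 and 42.3 to 53.5 CPM, with miR-145a-5p at 0 in the 4 libraries. Liver, muscle and neural markers summed to 19.3 to 40.0 and 22.9 to 26.1 CPM. Summed levels of the Dlk1-Dio3 cluster reached at most 2.77 CPM, with 0 of 9 members tested. The 7 epithelial markers were the exception in level, at 3176 and 1475 CPM in WT and 1682 and 1313 in mCre. Epithelial markers were lower in mCre for 6 of 6 tested in replicate 1 and 2 of 6 in replicate 2. The part of other cell types in the results was not tested. In such bulk samples fewer cells of a type and less RNA per cell cannot be told apart.

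The genotype difference in TN was set against that in MP, the CD8+ subset that the design text calls VM, usually read as virtual memory cells. In MP miR-29a-3p was 3105 and 11660 CPM in WT and 833 and 1498 in mCre, lower in both pairs, as in the TN replicate 1 pair. The log2 ratios of the TN replicate 1 pair had a Pearson correlation of 0.36 and 0.34 with those of the MP replicate 1 and replicate 2 pairs across the 382 miRNAs. For the TN replicate 2 pair they were -0.52 and -0.65, and between the MP pairs 0.59. The TN replicate 1 pair thus leaned the same way as both MP pairs and the TN replicate 2 pair the opposite way. None of these pairs shares a library with another.

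Tested directly, the genotype effect in TN minus that in MP was called for 0 of 382 miRNAs (0%) by edgeR. The smallest edgeR adjusted p was 0.301, and 54 miRNAs (14.1%) were under 0.05 before adjustment. DESeq2 called 16, of which 11 were positive, among them miR-29a-3p and miR-29b-3p. edgeR called 68 without WT TN replicate 1, 139 with neither TN library of replicate 1 and 0 with neither of replicate 2. For miR-29a-3p the log2 difference was 4.90 ± 1.66 (SE, edgeR adjusted p = 0.301), from 2.24 in TN and -2.66 in MP. miR-664-3p was 120 and 122 CPM in WT MP and 22.2 and 37.4 in mCre MP, with a difference of 3.82 ± 0.89 (edgeR adjusted p = 0.301). miR-150-5p was 83130 and 104600 CPM in WT MP and 43540 and 72670 in mCre MP, lower in mCre there and higher in TN, with a difference of 2.02 ± 0.60 (edgeR adjusted p = 0.301). miR-183-5p was 243 and 400 CPM in WT MP and 602 and 442 in mCre MP, higher in mCre in MP and lower in TN, with a difference of -1.57 ± 0.71 (edgeR adjusted p = 0.350). For miR-664-3p and miR-150-5p both TN pairs went against both MP pairs, as labelled. With neither TN library of replicate 2 the differences were 2.88 and 1.51, and that of miR-29a-3p was 1.67, where miR-29a-3p was lower in mCre in both subsets.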

How the data were processed

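The deposited values are expected counts in a single table, in which values need not be whole, with a column per library and 2128 rows of mature miRNAs on precursors, under 1978 names. Among names with 1 row 82.8% of values above 0 were whole, and among the 85 names with several rows 15.8%. The genome build was mm10, per the submitters' processing notes. For the aligner, the counter and the miRNA annotation, nothing is given in the sources used here.

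Values were summed by name and rounded to whole counts. Low counts were removed with filterByExpr (minimum count 10, minimum total 15), which kept 382 miRNAs. One fit of the 4 groups of 2 libraries with TMM factors (edgeR 4.0.16, R 4.3.3) left 4 residual degrees of freedom at a common dispersion of 0.356. It tested mCre against WT in TN and its difference from MP by the quasi-likelihood F test, with Benjamini-Hochberg adjustment at 0.05. Standard errors were derived from F, as the size of the log2 fold change over its square root. Log2 ratios within a pair used a prior count of 2 and carry no test; past 2-fold counts as a difference. DESeq2 1.42.0 and other alternatives are given at the close.

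The named miRNAs were every tested miR-29 form, the 5 smallest p, the 10 most abundant, up to 6 per direction or orientation past 2-fold in both pairs at 100 CPM or more, and up to 3 per list by level. Others are marked as chosen after their values were seen, or stand as members of a counted group. The comparison, members and lists were chosen with earlier results of these data known. Sequences and positions are from RefSeq and GENCODE annotation of GRCm38.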

Additional observations from a re-analysis of the deposited data

How the results depend on the processing

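mCre against WT in TN gave 0 calls with DESeq2, RLE factors, total counts, the TN libraries alone and each of 8 libraries left out (0 to 0). It gave 1 call without the filter on low counts and 85 with neither TN library of replicate 1, a choice made after seeing the data; the cause was not tested. The difference from MP gave 16 with DESeq2, 10 without the filter, 139 with neither TN library of replicate 1 and 0 to 68 with 1 library left out, the highest without WT TN replicate 1. With 1 library left out, miR-29a-3p ran from -0.38 to 3.40 on the log2 scale, miR-29b-3p from -0.47 to 3.23 and miR-29c-3p from -0.11 to 9.35; each was negative only without mCre TN replicate 2. With neither TN library of replicate 2 they were -0.98, -0.96 and -1.02. Among the 5 miRNAs of smallest p, none changed direction under these alternatives. Both of their mCre libraries lay on 1 side of both WT libraries, so leaving libraries out could hardly turn them. The replicate 1 pair had 57 miRNAs past 2-fold with a prior count of 10, and 22 at a mean of at least 100 CPM. The replicate 2 pair had 78 at that level.

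With the replicate number as a block, edgeR called 0 miRNAs (5 at an unadjusted p under 0.05) for mCre against WT in TN and 0 for the difference from MP. The deviations of same-numbered WT and mCre TN libraries correlated at -0.32 as labelled. With 2 libraries a group and the replicate 2 labels unchecked, this value cannot show whether the number pairs the libraries. With numbers crossed, on the TN libraries alone, edgeR called 0 (13 unadjusted), and uncrossed 0 (1 unadjusted). The depth of WT TN replicate 2, the lowest, limits the scarce strands: 3 counts there are 1.55 CPM before scaling.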
